A study of Mus musculus with 33 samples.

Results

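The dose series compared mouse kidneys that carried 0, 1 or 2 copies of Six2 at embryonic day 11.5 (E11.5), when the ureteric bud has just entered the kidney mesenchyme. Its members were the whole kidneys of 16 of the study's 24 specimens, sequenced as 17 of its 33 libraries and chosen by the labelled age and genotype: 5 knockout embryos (0 copies), 5 heterozygous embryos (1 copy) and 6 wild-type embryos (2 copies). The other 8 specimens, 4 heterozygous and 4 wild-type kidneys at E15.5, are used only where that age is named. The labels give neither the construction of the mutant Six2 allele nor the strain. They do not say whether an E11.5 sample came from 1 animal or was pooled, so p-values measure the spread between these samples. The question put to each gene was the form of its response to Six2 dose: a graded response moves at each copy lost, a threshold response keeps near the wild-type level until the second copy is lost, and a saturated response is complete once the first copy is lost.

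Six2 encodes a homeodomain transcription factor of the cap mesenchyme, the layer of nephron progenitors around each tip of the ureteric bud. It holds these cells in the progenitor state, against Wnt signals from the bud that turn them into nephron epithelium. The cap cells in turn release Gdnf, which acts through the receptor Ret on the bud tip and drives its branching. In whole kidneys, fewer cells of a type and less RNA per cell of that type cannot be told apart.

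Library sizes, in units of 1000000 counts, ran from 10.8 to 26.2. Sexes and batches were unequal between genotypes. Of the knockout embryos 4 were female and 1 male, of the heterozygous embryos 2 and 3, and of the wild-type embryos 4 and 2. In batch 1 the 3 knockout libraries were female and the 3 heterozygous libraries male, so that within this batch sex and the second copy cannot be told apart. Reads of ribosomal RNA made up 0.868 to 11.6% of knockout, 3.49 to 17.2% of heterozygous and 18.8 to 24.8% of wild-type libraries in batch 1, and at most 0.442% of any library in batch 2. Of the 5 knockout embryos, 3 carried a title prefix found in no other genotype. Wild-type replicate 3 was the lowest of the 6 wild types for 16 of 28 nephron progenitor genes. Each test included sex and the share of an embryo's counts that came from batch 2. Counts of calls from fits with the title prefix as block, and without the libraries richest in ribosomal RNA, are given in the closing section.

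Six2 itself (chr17:85684277-85688274, minus strand, mm10) had 0.655, 0.286, 0.485, 0.441 and 0.457 CPM (counts scaled to a library of 1000000) in the 5 knockout kidneys. It had 13.9, 13.6, 16.7, 9.71 and 10.4 CPM in the heterozygous kidneys. In wild-type kidneys its lowest, median and highest levels were 19.1, 23.1 and 32.7 CPM. The 3 genotypes did not overlap, and the knockout libraries held 3 to 13 reads of Six2 each. The fitted heterozygous level was 51.6% of wild type (95% interval 43.1 to 61.8), and the knockout level was 1.97%. For the log2 level, the exact permutation p (two-sided) was 0.00794 between knockout and heterozygous kidneys and 0.00216 between heterozygous and wild-type kidneys, the smallest values that 252 and 462 splits allow. Copies of this gene define the genotypes, so these values check the labels and are no result about the response to dose. Six2 is still included in the counts of called genes below.

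The gene also shows why the scale matters for the form of a response. On the log2 scale Six2 changed by -0.96 ± 0.12 (SE) at the first copy and by -4.71 ± 0.20 at the second, so its heterozygous level lay 1.88 ± 0.14 above the midpoint of both ends (adjusted p = 5.21e-06). A level proportional to the number of copies gives such a gap, since 0 copies have no finite logarithm. Against the arithmetic midpoint, the mean of the knockout and wild-type levels themselves, the heterozygous level was 1.01 times the midpoint (adjusted p = 0.977). Departures are therefore given on both scales. Adjusted p values for slopes, steps and log2 departures are from quasi-likelihood tests in edgeR, and those against the arithmetic midpoint from a test on the levels fitted there, with Benjamini-Hochberg adjustment over all genes tested, and a gene is called where that value is under 0.05.

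The slope of log2 level per Six2 copy lost was called for 925 of 16141 genes tested (5.73%), with 441 (2.73%) higher and 484 (3%) lower as copies were lost. The test with 1 level per genotype called 896 genes (5.55%). Loss of the first copy, heterozygous against wild-type kidneys, was called for 11 genes (0.0681%), of which 2 were higher (0.0124%) and 9 lower (0.0558%). Loss of the second copy, knockout against heterozygous kidneys, was called for 609 genes (3.77%), of which 156 were higher (0.966%) and 453 lower (2.81%). At the ends of the series, knockout against wild-type kidneys, 1153 genes were called (7.14%), 499 higher (3.09%) and 654 lower (4.05%). The calls at the first and second copy share the heterozygous embryos, so the 2 counts are not independent. Both moved when 1 embryo was left out. The first-copy count was 6, 5, 1 and 5 without heterozygous replicate 2, 3, 4 or 5, and 3, 17 and 6 without wild-type replicate 2, 3 or 4. The second-copy count was 382, 387, 362 and 221 without knockout replicate 2, 3, 4 or 5, and 330, 381 and 309 without heterozygous replicate 2, 3 or 5. The count at the ends was 717 without knockout replicate 5.

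The departure of the heterozygous level from the log2 midpoint was called for 33 genes (0.204%), 29 above the midpoint (0.18%) and 4 below it (0.0248%). Of these, 21 also had a called slope. Only 7 of the 33, which were Six2, Meox2, Kif26b, Krt23, Pgm2l1, Esr1 and Rpph1, kept an adjusted p under 0.05 when each of the 16 embryos was left out in turn. The other 26 lost the call in 3 to 14 of the 16 fits, where the highest adjusted p was 0.206, and all 33 kept their sign. Without knockout replicate 5 the test called 18 genes, 13 of them among the 33. Without heterozygous replicate 2, 3, 4 or 5 it called 7, 7, 15 and 9 genes, of which 7, 7, 14 and 9 were among the 33. Without wild-type replicate 2, 4 or 6 it called 19, 11 and 67 genes, of which 19, 11 and 33 were among them. With the title prefix as block it called 100 genes, of which 8 were among the 33. It was 0 in batch 1 alone and 2 in batch 2 alone, fits with 9 and 8 libraries.

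Among the 896 responding genes, 30 had a threshold form: a called departure, a heterozygous level nearer to wild type, and no call at the first copy. This rule required neither a heterozygous level near wild type nor a difference between knockout and wild type, and some of the 30 lacked them. A separate form was defined for a called departure without a called difference between knockout and wild type. The threshold rule took precedence over it, so that form held 0 genes, and 5 genes that met both are counted as threshold. A graded form, with both copies called in 1 direction and no called departure, was found for 5 genes. A saturated form, with a called departure, a heterozygous level nearer to knockout and no call at the second copy, was found for 2. Six2 alone had both steps and the departure called. The remaining 858 genes, 95.8% of those that responded, had no form at this replication. Their form is not known, which differs from being graded. The threshold count was 19 or 16 when knockout replicate 2 or 5 was removed, 5, 5, 14 and 7 when heterozygous replicate 2, 3, 4 or 5 was removed, and 16, 9 and 63 when wild-type replicate 2, 4 or 6 was removed. The saturated count was 0 without wild-type replicate 4, and 1 without knockout replicate 1 or 5 or heterozygous replicate 2, 3, 4 or 5. With the arithmetic midpoint in place of the log2 midpoint the counts were 8 threshold, 6 graded and 1 saturated, and Six2 joined the graded genes.

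**Figure D1:**
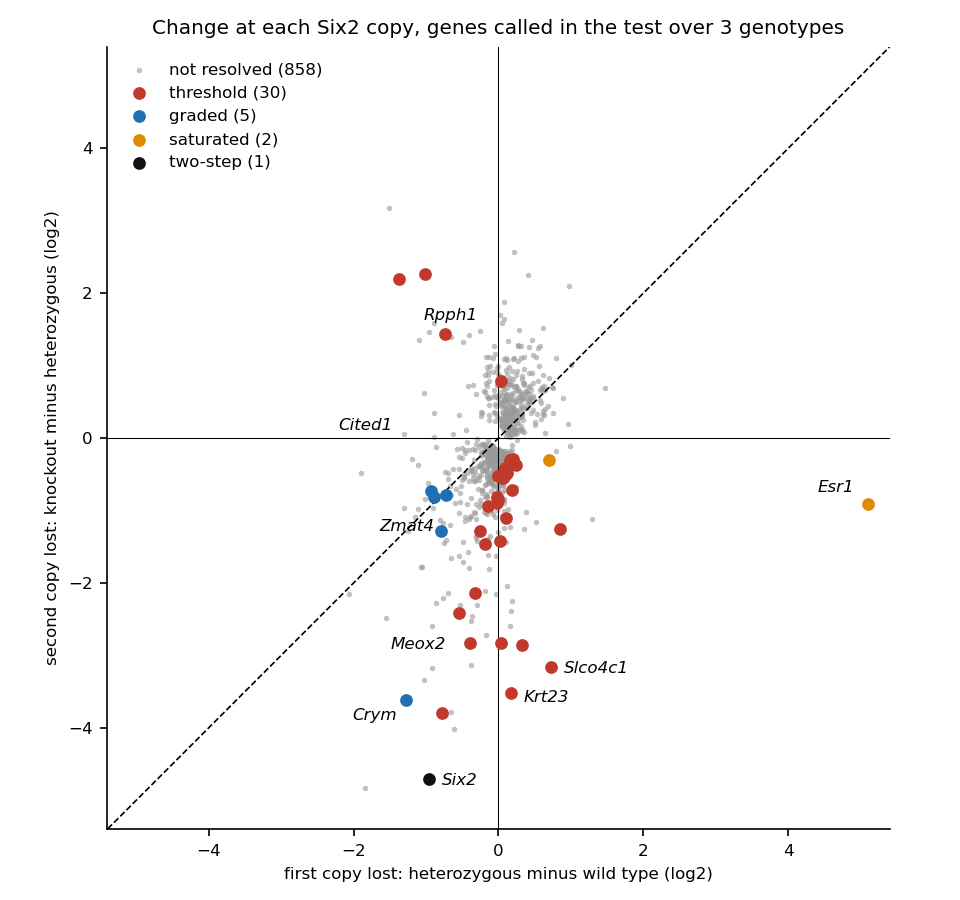
Change at the first Six2 copy (heterozygous minus wild type, log2, horizontal axis) against change at the second (knockout minus heterozygous, log2, vertical axis) for the 896 responding genes, coloured by form. Points on the dashed diagonal changed equally at both copies. Most of the 30 threshold genes lie near the vertical axis, with 3 small RNAs in the upper left, the 5 graded genes lie in the lower left, and Esr1 lies far to the right.

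In the fit of all 16 embryos, the heterozygous level lay closer to wild type for most genes that differed at the ends of the series. The position of the heterozygous level was measured on the log2 span of each gene, with 0 for the wild-type level and 1 for the knockout level. Over the 654 genes lower in knockout kidneys the median position was 0.16, and 88.4% of them lay nearer to wild type. Over the 499 higher genes the median was 0.33, and 77.4% lay nearer to wild type. Among all 16141 genes tested 61.0% did. Measured on the level itself, the median positions were 0.20 for the lower and 0.29 for the higher genes, and the heterozygous level lay above the arithmetic midpoint for 81.2% of the lower genes, 16.8% of the higher genes and 50.9% of all genes. Of the same lower and higher genes, 76.4% and 56.8% lay nearer to wild type in batch 1 alone, and 78.0% and 77.2% in batch 2 alone. With the title prefix as block the shares were 72.3% and 70.9%. These shares describe genes that share the same 16 embryos, and no test was made of them.

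**Figure D2:**
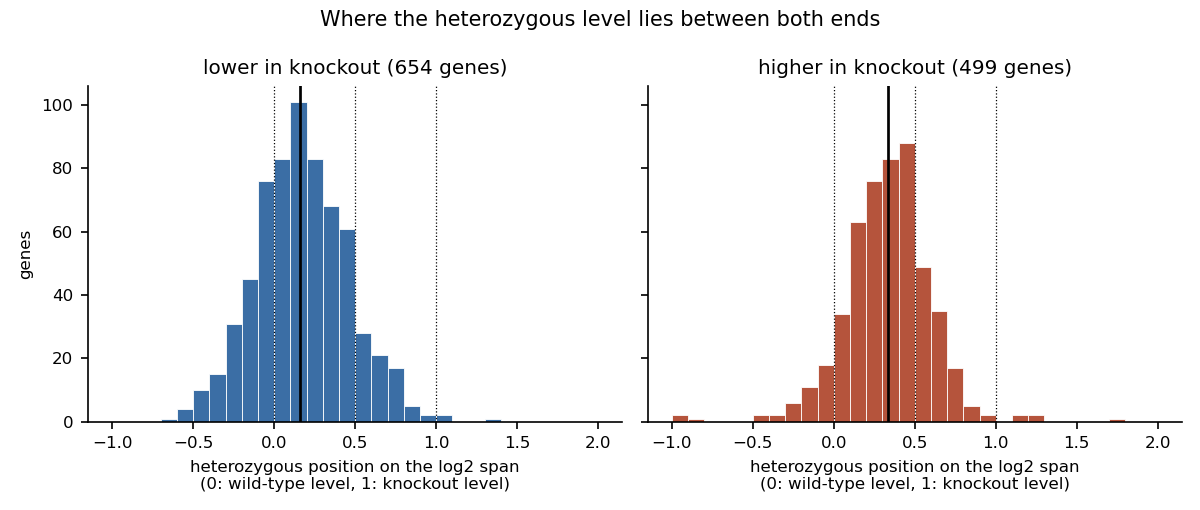
Number of genes (vertical axis) by the position of the heterozygous level on the log2 span between wild type (0) and knockout (1), for the 654 genes lower and the 499 genes higher in knockout kidneys. The solid line marks the median, 0.16 and 0.33, and dotted lines mark 0, 0.5 and 1. Values beyond the axis are counted in the outer bins.

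Threshold genes made up 30 of the 16141 genes tested, 5 of 28 on the nephron progenitor list and 3 of 16 on the ureteric bud tip list. Both lists were chosen with earlier results of these data known. By direction 26 of the 30 threshold genes were lower and 4 higher in knockout kidneys, and knockout differed from wild type by test for 25. Over the 22 of these that were lower, the median heterozygous level was 101% of wild type (range 58.2 to 166), and the median knockout level was 42.6% (range 4.17 to 79.6). The 95% interval of the heterozygous level included the wild-type level for 16 of the 30, lay above it for 7 and below it for 7. Where the interval lay above or below, it excluded the wild-type level, although the step was not called after adjustment over all genes tested. Knockout and heterozygous embryos did not overlap for 26 of the 30 genes, while heterozygous and wild-type embryos were apart for 2. Both counts describe genes chosen by this contrast, and such gaps between pairs of genotypes were not counted over all genes tested.

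**Figure D3:**
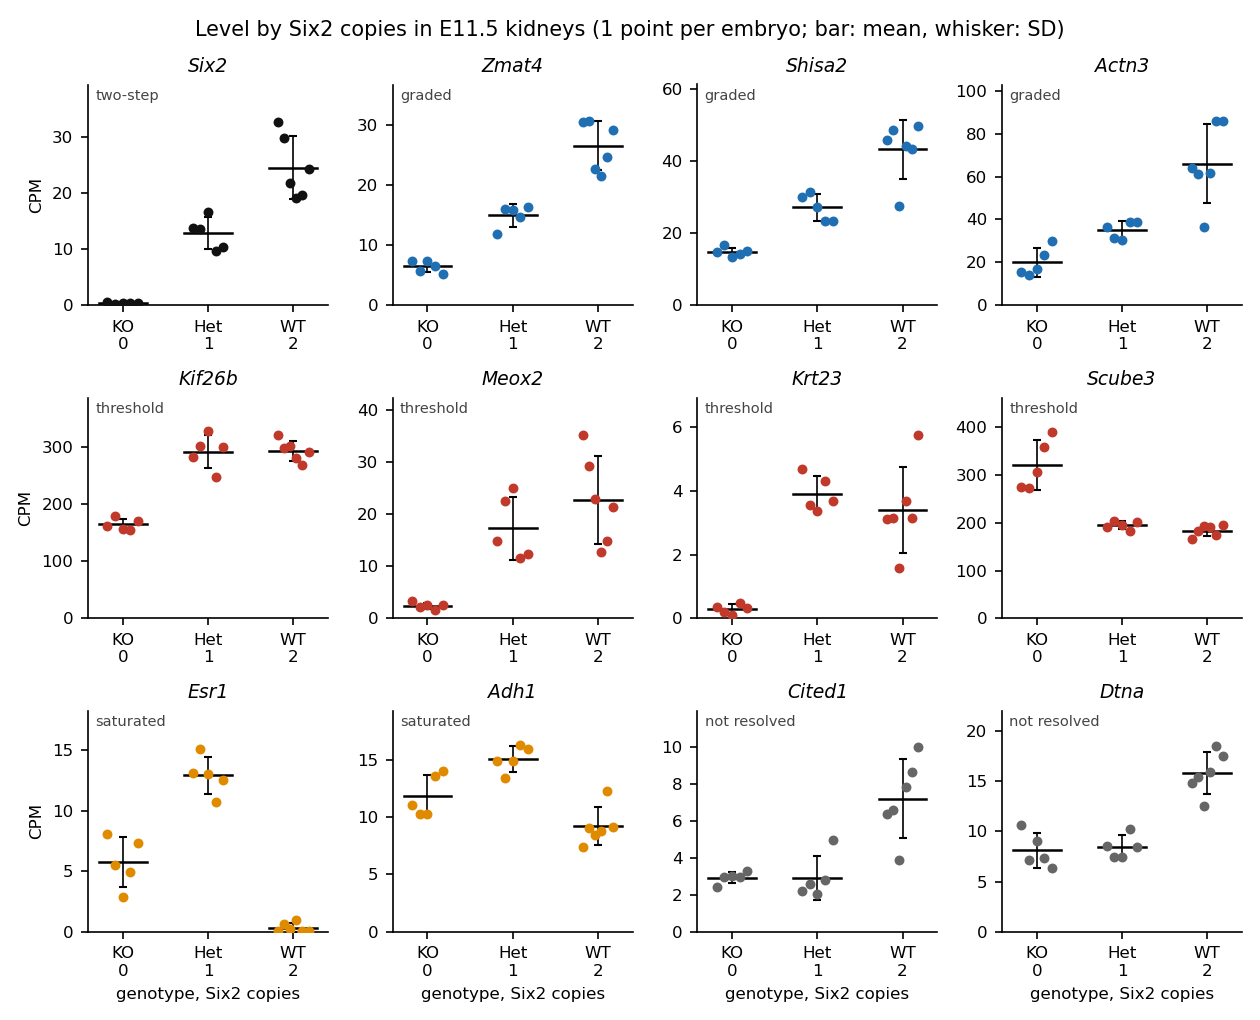
CPM (vertical axes, linear from 0) of 12 genes in each E11.5 embryo, ordered by Six2 copies: knockout (KO, 0), heterozygous (Het, 1) and wild type (WT, 2). Points are embryos, horizontal bars are means and whiskers SD (n = 5, 5 and 6). Six2, Zmat4, Shisa2 and Actn3 step down at each copy lost, Kif26b, Meox2 and Krt23 fall and Scube3 rises at the second copy, Esr1 and Adh1 peak in heterozygotes, and Cited1 and Dtna are about as low in heterozygous as in knockout kidneys.

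Kif26b, a kinesin needed in mice for the kidney mesenchyme to hold together around the bud, gave the plainest case. Kif26b (chr1:178529125-178939200, plus strand) had 161, 178, 156, 155 and 171 CPM in knockout kidneys and 283, 302, 327, 247 and 299 CPM in heterozygous kidneys. In wild-type kidneys its lowest, median and highest levels were 268, 294 and 320 CPM. Every knockout lay below every other embryo, and heterozygous and wild-type embryos covered the same range. The heterozygous level was 98.8% of wild type (95% interval 90.9 to 107) and the knockout level 55.9%. The departure was 0.40 ± 0.05 on the log2 scale (adjusted p = 0.00185), and the heterozygous level was 1.27 times the arithmetic midpoint (adjusted p = 0.016).

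Meox2, a homeobox gene of embryonic mesenchyme, fell further. Meox2 (chr12:37108540-37179534, plus strand) had 3.28, 2.19, 2.54, 1.65 and 2.57 CPM in knockout kidneys and 14.8, 22.5, 25, 11.6 and 12.3 CPM in heterozygous kidneys. The wild-type kidneys had a lowest level of 12.7, a median of 22.1 and a highest of 35.1 CPM. Heterozygous embryos overlapped the lower wild types, and the knockouts stood apart. The heterozygous level was 76.0% of wild type (95% interval 60.5 to 95.6), the knockout level 10.7% and the log2 departure 1.21 ± 0.15 (adjusted p = 0.00155). Against the arithmetic midpoint the ratio was 1.37 with an adjusted p of 0.284, so the call for Meox2 rests on the log2 scale.

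The threshold genes Spock2, Phf19, Tpm2 and 2610028E06Rik were also lower in knockouts. Spock2, which encodes a secreted proteoglycan, averaged 60.6 ± 11.2 CPM in knockout, 282 ± 44.4 in heterozygous and 339 ± 81.6 in wild-type kidneys (SD), with a departure of 0.91 ± 0.14 (SE, adjusted p = 0.0162). Phf19, a Polycomb-associated protein, averaged 8.37 ± 1.59, 45.2 ± 3.94 and 65.9 ± 18.1 CPM in the same order, with a departure of 0.94 ± 0.15 (adjusted p = 0.0188). The actin-binding tropomyosin gene Tpm2 averaged 49.8 ± 7.05, 124 ± 22.8 and 150 ± 33.9 CPM. The noncoding RNA 2610028E06Rik (chr4:125887851-125922417, minus strand) was nearly silent in knockouts, at 0.140 ± 0.0912 CPM, against 1.90 ± 0.457 in heterozygous and 3.28 ± 0.965 in wild-type kidneys. The heterozygous intervals of Phf19, Tpm2 and 2610028E06Rik all lay below the wild-type level, with upper bounds of 87.5, 96.2 and 85.2%. None of these 4 genes was called against the arithmetic midpoint, where the adjusted p ran from 0.252 for Tpm2 to 0.848 for 2610028E06Rik. The departure was lost in 3 of 16 leave-one-out fits for Spock2, in 5 each for Phf19 and Tpm2, and in 12 for 2610028E06Rik.

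Itga8, Cdh11 and Bcl2, named after their form was known, had fitted heterozygous levels within 2% of wild type. Itga8, the integrin through which kidney mesenchyme binds nephronectin on the bud, averaged 59.2 ± 4.48 CPM in knockout, 114 ± 10.3 in heterozygous and 114 ± 15.3 in wild-type kidneys. The mesenchymal cadherin gene Cdh11 averaged 439 ± 21.3, 642 ± 50.3 and 634 ± 46.4 CPM in that order, and the apoptosis inhibitor Bcl2 averaged 63.4 ± 7.23, 114 ± 20.8 and 114 ± 19.5 CPM. The heterozygous levels of these 3 genes were 98.1, 99.9 and 99.3% of wild type, each with an interval that included 100%. Their log2 departures were 0.44 ± 0.08, 0.26 ± 0.05 and 0.42 ± 0.07, with adjusted p values of 0.038, 0.032 and 0.0222. When embryos were left out in turn, Itga8 lost the call in 12 of 16 fits, Cdh11 in 9 and Bcl2 in 7. Other members lower in knockouts were Has2, which makes hyaluronan, the growth factor gene Fgf1, the cell-surface protein gene Tpbg and Rdh10, which begins the synthesis of retinoic acid from retinol.

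The 3 threshold genes of the ureteric bud tip, the epithelium next to the cap, fell at the second copy. Krt23, a keratin of the tip, had 0.353, 0.191, 0.121, 0.496 and 0.343 CPM in knockout kidneys and 4.68, 3.56, 3.38, 4.32 and 3.68 CPM in heterozygous kidneys. Its wild-type levels had a minimum of 1.58, a median of 3.14 and a maximum of 5.74 CPM. All knockouts lay below all other embryos, and the heterozygous values lay within the wild-type range. The departure was 1.85 ± 0.23 (adjusted p = 0.00147), and the ratio to the arithmetic midpoint was 2.05 (adjusted p = 0.106). Etv5, an ETS factor induced by Gdnf through Ret, averaged 25.5 ± 5.75 CPM in knockout, 60.4 ± 14.8 in heterozygous and 51.8 ± 7.66 in wild-type kidneys, with a departure of 0.60 ± 0.11 (adjusted p = 0.0442, lost in 12 of 16 leave-one-out fits). Slco4c1, an organic anion transporter, averaged 0.222 ± 0.164, 1.89 ± 0.943 and 1.05 ± 0.319 CPM in the same order (departure 1.94 ± 0.31, adjusted p = 0.0162, lost in 5). Gdnf itself averaged 20.3 ± 4.56, 44.7 ± 4.90 and 42.0 ± 8.82 CPM, and its departure of 0.57 ± 0.14 missed the threshold (adjusted p = 0.13).

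Scube3 was the one protein-coding threshold gene that was higher in knockout kidneys. Scube3 (chr17:28142141-28174854, plus strand), which encodes a secreted glycoprotein, had 274, 272, 307, 359.5 and 390.3 CPM in knockout kidneys. It had 191, 203, 195, 183 and 202 CPM in heterozygous kidneys, and in wild-type kidneys a lowest level of 166, a median of 188 and a highest of 195 CPM. The knockouts stood above all other embryos. The heterozygous level was 103% of wild type (95% interval 93.2 to 114). The departure was -0.37 ± 0.06 (adjusted p = 0.0217), and the ratio to the arithmetic midpoint was 0.743 (adjusted p = 0.016). Leaving out knockout replicate 5 or any 1 of heterozygous replicates 1 to 5 ended the log2 call, with adjusted p values of 0.106, 0.0598, 0.0554, 0.0668, 0.108 and 0.0794 in that order.

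The other 3 threshold genes higher in knockouts were small noncoding RNAs that were lowest in heterozygotes. Rpph1, the RNA of ribonuclease P (chr14:50807449-50807767, minus strand, within the span of Ccnb1ip1), averaged 2290.3 ± 949 CPM in knockout, 963 ± 291 in heterozygous and 1562 ± 536 in wild-type kidneys. The small Cajal body RNAs Gm25395 (chr1:87776938-87777209, plus strand) and Scarna6 (chr1:87784556-87784820, plus strand) both lie within the span of Atg16l1 on its strand. Gm25395 averaged 5.92 ± 2.75, 1.36 ± 0.429 and 3.4 ± 0.582 CPM in knockout, heterozygous and wild-type kidneys, and Scarna6 averaged 6.87 ± 4.67, 1.60 ± 0.138 and 2.95 ± 0.885 CPM. Heterozygous embryos lay below all wild types for Gm25395 and Scarna6 and overlapped them for Rpph1. The fitted heterozygous levels of Rpph1, Gm25395 and Scarna6 were 59.8, 38.7 and 49.6% of wild type. These genes met the counting rule for the threshold form without staying near the wild-type level. Their departures were -1.09 ± 0.14, -1.78 ± 0.28 and -1.64 ± 0.30 for Rpph1, Gm25395 and Scarna6, and all 3 were also called against the arithmetic midpoint (adjusted p = 0.00438, 0.016 and 0.0448). With the log2 ribosomal share as a covariate the departures were -1.09, -1.87 and -1.68 in that order (adjusted p = 0.00347, 0.00271 and 0.0317). Without the libraries above 5% ribosomal counts they were -1.05, -1.59 and -1.59, and none was called (adjusted p = 0.0575, 0.09 and 0.129).

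For 5 of the 30 threshold genes, which were Dio3, Ddx21, Naa50, Megf9 and Gm25395, knockout and wild-type kidneys did not differ by test. In Dio3, the enzyme that inactivates thyroid hormone, levels were 1.42 ± 0.339 CPM in knockout, 3.27 ± 1.14 in heterozygous and 1.88 ± 0.419 in wild-type kidneys. Its heterozygous level was 181% of wild type (95% interval 133 to 246) and its departure 1.05 ± 0.19 (adjusted p = 0.0263, lost in 6 of 16 leave-one-out fits). Pgm2l1, which makes glucose 1,6-bisphosphate, also had its highest group in heterozygotes, with 48.1 ± 11.8, 75.7 ± 19.0 and 66.5 ± 16.8 CPM in knockout, heterozygous and wild-type kidneys. Its raw values overlapped between all genotypes and differed between batches. With batch fitted, the heterozygous level was 114% of wild type (95% interval 105 to 125) and 1.35 times the arithmetic midpoint (adjusted p = 0.00438).

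Of all 30 threshold genes, the heterozygous level lay on the same side of the arithmetic midpoint as of the log2 midpoint for 30. Called against it were 7: Kif26b, Pgm2l1, Rdh10, Scube3, Rpph1, Gm25395 and Scarna6. Across all genes that test called 9 (0.0558%), 4 above (0.0248%) and 5 below (0.031%), and the 2 others were Esr1 and the noncoding RNA Gm14204. At an unadjusted p under 0.05 it marked 1882 genes, and the log2 test marked 1896.

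**Figure D4:**
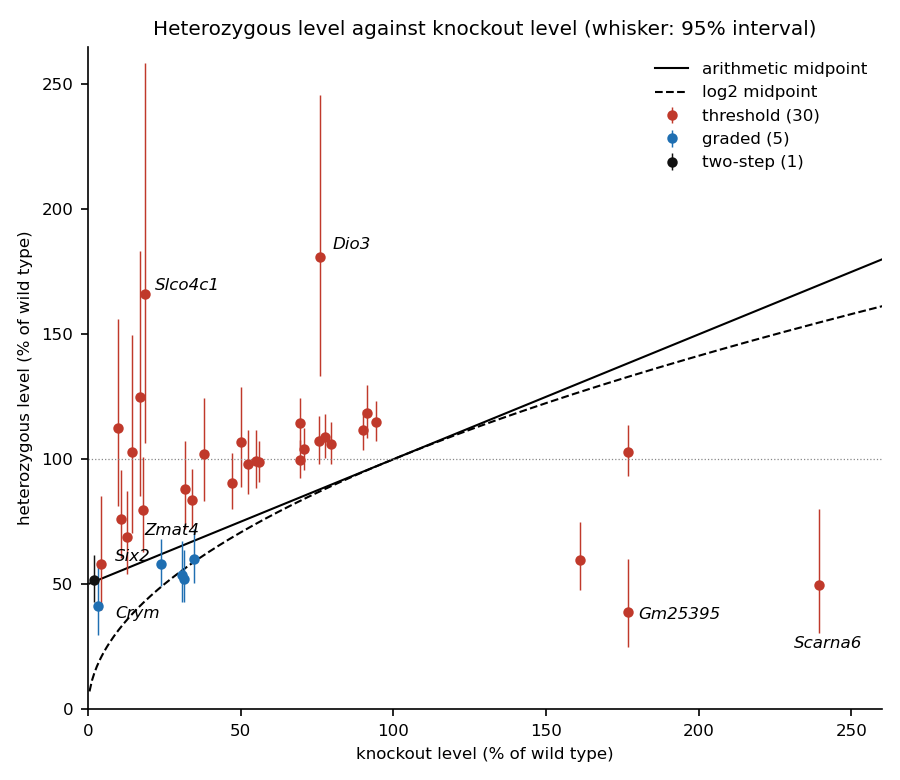
Heterozygous level (vertical axis, % of wild type) against knockout level (horizontal axis, % of wild type) for the threshold, graded and two-step genes, with 95% intervals. The dashed curve marks the log2 midpoint and the solid line the arithmetic midpoint. Six2 lies on the solid line and Crym below it. The 26 threshold genes lower in knockouts lie above both lines, and the 4 higher ones below both.

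Graded genes were all lower as copies were lost. Zmat4, a zinc finger gene, had the smallest adjusted p of the slope test among all genes tested. Zmat4 (chr8:23636019-24156585, plus strand) had 7.41, 5.72, 7.33, 6.56 and 5.25 CPM in knockout kidneys and 11.8, 15.9, 15.9, 14.6 and 16.3 CPM in heterozygous kidneys. Its wild-type levels had a minimum of 21.5, a median of 26.9 and a maximum of 30.6 CPM. The 3 genotypes did not overlap. The slope was -1.01 ± 0.07 per copy (adjusted p = 2.71e-07). Heterozygous kidneys held 57.9% of the wild-type level (95% interval 49.3 to 68.1) and knockout kidneys 23.8%. The departure was 0.25 ± 0.10 with an adjusted p of 0.375, and its 95% interval ran from 0.03 to 0.47.

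Shisa2, which holds Wnt and FGF receptors back in the endoplasmic reticulum, fell in nearly equal log2 steps. Shisa2 had 14.7, 16.6, 13.5, 14.2 and 15 CPM in knockout kidneys, 30.1, 31.5, 27.3, 23.4 and 23.3 CPM in heterozygous kidneys and a lowest, median and highest level of 27.4, 45.0 and 49.7 CPM in wild-type kidneys. The lowest wild type, replicate 3, reached into the heterozygous range, and the other 5 did not. Its steps were -0.73 ± 0.12 at the first copy (adjusted p = 0.0325) and -0.79 ± 0.14 at the second (adjusted p = 0.00388), and its departure was 0.03, with a 95% interval of -0.21 to 0.27.

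Actn3, an alpha-actinin best known from fast muscle fibres, averaged 19.9 ± 6.56 CPM in knockout, 35.2 ± 4.06 in heterozygous and 65.9 ± 18.4 in wild-type kidneys. Moxd1, a monooxygenase related to dopamine beta-hydroxylase, averaged 20.6 ± 5.82, 33.4 ± 6.77 and 64.8 ± 11.8 CPM. Their slopes were -0.84 ± 0.07 and -0.86 ± 0.08 per copy (adjusted p = 1.94e-06 and 4.78e-06), and their departures were -0.10 (95% interval -0.36 to 0.16) and -0.04 (-0.35 to 0.26). Heterozygous levels were 52.2% and 53.8% of wild type. Knockout and heterozygous embryos overlapped for Moxd1, and heterozygous and wild-type embryos for Actn3.

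Crym, which binds thyroid hormone and marks the cap mesenchyme, counted as graded by a narrow margin. It had 1.01, 2.38, 2.42, 0.883 and 0.685 CPM in knockout kidneys, 18.9, 21.2, 20.1, 13.5 and 16.1 CPM in heterozygous kidneys, and a lowest, median and highest level of 22.1, 43.4 and 56.0 CPM in wild-type kidneys. The genotypes did not overlap. Its departure of 1.17 ± 0.24 just missed the threshold (adjusted p = 0.0586) and its first step of -1.27 ± 0.22 just passed (adjusted p = 0.0498). Its heterozygous level was 41.4% of wild type (95% interval 29.8 to 57.6) and 0.802 times the arithmetic midpoint (adjusted p = 0.59).

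The slopes of all 5 graded genes stayed called in each of the 16 leave-one-out fits, but the graded form did not. Zmat4 kept it in 14 fits and lost it without heterozygous replicate 4 or wild-type replicate 2. Actn3 kept it in 13, Shisa2 in 5, Moxd1 in 3 and Crym in 1. With wild-type replicate 3 removed 8 genes were graded. The count was 3 with knockout replicate 2, 4 or 5 or wild-type replicate 4 removed, and 2 with knockout replicate 1, heterozygous replicate 1, 2 or 3 or wild-type replicate 1 or 5 removed. It was 1 with heterozygous replicate 5 removed and 0 with heterozygous replicate 4 or wild-type replicate 2 removed. It was 0 in each batch alone.

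The embryos were also ordered by level, without a test. In 10 of 16141 genes (0.062%) every knockout lay below every heterozygote and every heterozygote below every wild type, and in 1 gene (0.0062%) the order was reversed. Of these 11 genes, 2 had the graded form, Six2 had both steps and the departure, and 8 had no form. The first 10 were Six2, Zmat4, Crym, Cldn9, Sowahb, Clrn1, Crtac1, Pnmt, Aldh3b2 and Pcnxl2. Cldn9, a tight junction claudin, averaged 2.60 ± 0.697 CPM in knockout, 7.41 ± 0.413 in heterozygous and 11.8 ± 2.25 in wild-type kidneys, a slope of -1.03 ± 0.09 per copy (adjusted p = 3.71e-06), with 60.6% of the wild-type level in heterozygotes. Clrn1, a tetraspan protein, held 52.7% of its wild-type level in heterozygotes and 5.86% in knockouts (slope -1.74 ± 0.21, adjusted p = 9.17e-05). The gene with the opposite order was Akr1c19, an aldo-keto reductase, with 3.28 ± 0.588, 1.90 ± 0.366 and 1.14 ± 0.302 CPM in knockout, heterozygous and wild-type kidneys (slope 0.76 ± 0.10, adjusted p = 0.000198). The first step of none of these 3 genes was called (adjusted p = 0.0943, 0.338 and 0.46).

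Both saturated genes were highest in heterozygotes. Esr1, the symbol of estrogen receptor alpha (chr10:4611593-5005614, plus strand), had 8.07, 5.53, 2.91, 4.96 and 7.31 CPM in knockout kidneys and 13.1, 15.1, 13.0, 10.7 and 12.6 CPM in heterozygous kidneys. Its wild-type levels ran from 0.0507 to 0.968 CPM with a median of 0.163, which is 1 to 20 reads per embryo. The genotypes did not overlap, with heterozygous kidneys highest and wild-type kidneys lowest. Its first step was 5.1 ± 0.37 (adjusted p = 3.27e-06), its second -0.91 ± 0.31 (adjusted p = 0.119) and its departure 3.01 ± 0.28 (adjusted p = 5.64e-05). The slope was not called (1.81 ± 0.58, adjusted p = 0.0797). Some engineered recombinases carry part of an estrogen receptor. The labels do not describe the Six2 allele, though some E15.5 heterozygous libraries have titles that begin with GCE, which is not explained. Reads from such a recombinase and from the gene itself cannot be told apart in counts per gene. Whether the form of Esr1 is a response to Six2 dose was not tested.

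Adh1, an alcohol dehydrogenase that also oxidises retinol, had 11, 10.3, 10.2, 13.6 and 14 CPM in knockout kidneys and 14.9, 13.4, 14.9, 16.3 and 15.9 CPM in heterozygous kidneys. Its wild-type levels had a minimum of 7.4, a median of 8.92 and a maximum of 12.3 CPM. Heterozygous embryos lay above all wild types, and knockouts overlapped both. The heterozygous level was 162% of wild type (95% interval 141 to 187) and the knockout level 131%. The departure was 0.50 ± 0.09 (adjusted p = 0.0222), it was lost in 6 of 16 leave-one-out fits, and against the arithmetic midpoint the adjusted p was 0.0547.

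Of the 9 genes lower at the first copy, 3 had no called second step and no called departure: Cited1, Dtna and Sema4g. Cited1, a transcriptional cofactor of uncommitted progenitors, had 2.42, 2.96, 3.03, 2.98 and 3.26 CPM in knockout kidneys, 2.19, 2.57, 2.03, 2.78 and 4.95 CPM in heterozygous kidneys, and a lowest, median and highest level of 3.85, 7.19 and 9.96 CPM in wild-type kidneys. Heterozygous replicate 5 stood above the other heterozygotes, and the knockouts lay within the heterozygous range. Its first step was -1.30 ± 0.20 (adjusted p = 0.0145), its second 0.06 ± 0.22 (adjusted p = 0.929) and its departure -0.68 ± 0.19 (adjusted p = 0.182). The call at the first copy was lost without heterozygous replicate 1, 3 or 4 or wild-type replicate 2 or 4, where the highest adjusted p was 0.112. Dtna, which encodes dystrobrevin alpha, averaged 8.11 ± 1.74, 8.45 ± 1.2 and 15.8 ± 2.10 CPM in knockout, heterozygous and wild-type kidneys, with a first step of -0.86 ± 0.13 (adjusted p = 0.0145) and a departure of -0.37 ± 0.12 (adjusted p = 0.263). Sema4g, a semaphorin, averaged 17.5 ± 2.57, 20.7 ± 4.52 and 30.3 ± 7.83 CPM, with a first step of -0.55 ± 0.09 (adjusted p = 0.0391) and a second of -0.26 ± 0.10 (adjusted p = 0.175). On the log2 span the heterozygous positions of Cited1, Dtna and Sema4g were 1.04, 0.88 and 0.67.

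At E15.5 the first copy could be compared again in other specimens, 4 heterozygous and 4 wild-type kidneys. There 66 of 18244 genes were lower (0.362%) and 38 higher (0.208%) in heterozygotes. Of the 5 graded genes 4 were lower: Crym by -0.74 ± 0.04, Actn3 by -1.21 ± 0.05, Shisa2 by -0.48 ± 0.03 and Moxd1 by -0.35 ± 0.03 on the log2 scale (SE). Zmat4, at 1.50 ± 0.168 CPM in heterozygous and 1.61 ± 0.144 CPM in wild-type kidneys, was not called (adjusted p = 0.894). Of the 30 threshold genes 3 were lower: Spock2 by -0.22 ± 0.03, Phf19 by -0.42 ± 0.04 and 2610028E06Rik by -0.69 ± 0.06. These 3 thus fell with loss of the first copy at this age. Another 5, Rdh10, Sel1l3, Thsd4, Trib2 and Fgf1, were higher, and 22 were not called. The median over the 30 was 0.04. Cited1 (-1.59 ± 0.04), Dtna (-0.62 ± 0.05) and Sema4g (-0.40 ± 0.05) were lower as well. The difference of the heterozygous step between the ages, tested over all 24 specimens, was called for Esr1 alone (1 of 17362 genes, 0.00576%). Its E15.5 step was 3.92 ± 0.41 smaller on the log2 scale. Wild-type Esr1 had a median of 0.163 CPM at E11.5 and a mean of 7.68 CPM at E15.5. At an unadjusted p under 0.05 that test marked 640 genes, and the other genes named here had adjusted p values of 1.

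The largest slopes were steeper among the genes that fell. Among called genes with a mean of at least 1 CPM, the 8 steepest falls were Six2, Crym, Pnmt, 2610028E06Rik, Capn11, Clrn1, Gm29418 and Cutal, from -2.17 to -1.59 per copy. The 8 steepest rises were Gm14204, Clec18a, Cldn10, Psd2, Car4, Tshr, Fst and Unc5d, from 1.46 to 0.78 per copy. The slope of Capn11 lost its call in 6 of 16 leave-one-out fits and that of Tshr in 1, while the others kept it in all 16. Embryos of all genotypes overlapped for Capn11. Fst, the activin antagonist follistatin, averaged 26.9 ± 1.7 CPM in knockout, 10.5 ± 1.82 in heterozygous and 8.89 ± 2.85 in wild-type kidneys, with steps of 0.32 ± 0.18 and 1.26 ± 0.19 at the first and second copy. Cldn10, a claudin, averaged 4.41 ± 0.454, 1.19 ± 0.311 and 1.14 ± 0.439 CPM, with steps of 0.07 ± 0.26 and 1.88 ± 0.25. Gm14204 averaged 4.08 ± 1.58, 0.713 ± 0.148 and 0.602 ± 0.374 CPM, and its heterozygous level was 0.293 times the arithmetic midpoint (adjusted p = 0.016). The log2 departures of Fst, Cldn10 and Gm14204 missed the threshold, with adjusted p values of 0.284, 0.149 and 0.0951.

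On the nephron progenitor list 19 of 28 genes fell at the second copy (2.81% of all genes tested), and 2, Crym and Cited1, fell at the first (0.0558%). This list and the others below were chosen with earlier results of these data known, so their counts describe the members and are not a test. The homeobox gene Hoxc11 rose at the second copy, by 0.25 ± 0.07 (adjusted p = 0.0427, 0.966% of all genes). Over the series 19 of 28 had a called fall (3%) and none a called rise. The median step was -0.17 at the first copy and -0.97 at the second, against 0.01 and -0.00 over all genes tested. The heterozygous level was nearer to wild type for 25 of 28. By form, 5 were threshold genes, which were Meox2, Spock2, Phf19, Itga8 and Cdh11, 1 was graded, which was Crym, and 14 responded with no form. Capn6, a calpain without protease activity that marks these progenitors, averaged 88.6 ± 6.8 CPM in knockout, 196 ± 31.9 in heterozygous and 261 ± 31.4 in wild-type kidneys (slope -0.75 ± 0.06, adjusted p = 3.71e-06, departure 0.31 ± 0.09, adjusted p = 0.196). The summed level of the list was 1321 to 1523 CPM in knockout, 2249 to 3015 in heterozygous and 2396 to 3355 in wild-type kidneys.

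**Figure D5:**
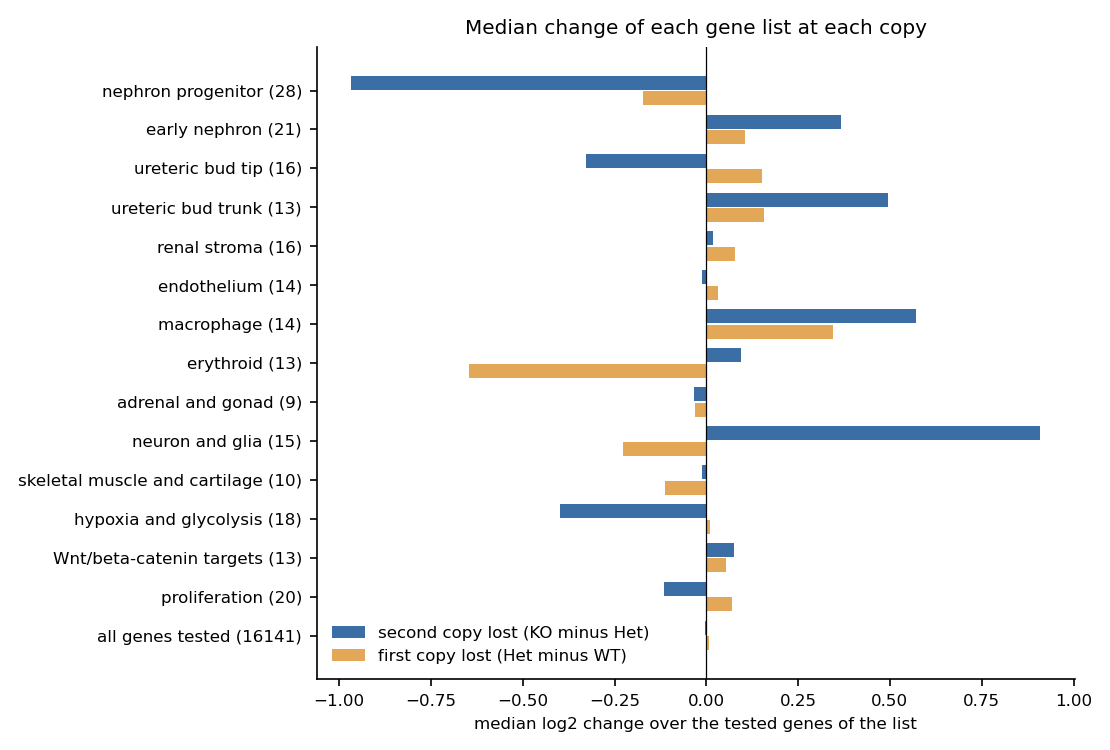
Median log2 change over the tested genes of each list (number in brackets) at the second Six2 copy (knockout minus heterozygous, upper bar) and at the first (heterozygous minus wild type, lower bar). The nephron progenitor list has medians of -0.97 and -0.17, and all genes tested have medians of -0.00 and 0.01.

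On the early nephron list 6 of 21 genes tested had a called rise over the series, against 2.73% of all genes, and none a called fall. At the second copy 4 rose (0.966% of all genes), at the first none was called, and the median steps were 0.37 and 0.11. Wnt4, the signal that begins epithelial conversion, averaged 48.5 ± 10.3 CPM in knockout, 30.5 ± 3.94 in heterozygous and 27.5 ± 8.04 in wild-type kidneys (slope 0.42 ± 0.08, adjusted p = 0.00378, departure -0.32 ± 0.14, adjusted p = 0.397). Cdh6, a cadherin of the early nephron, averaged 27.2 ± 3.82, 18.1 ± 3.39 and 14.1 ± 2.96 CPM (slope 0.47 ± 0.06, adjusted p = 0.000129). On the ureteric bud tip list 5 of 16 genes had a called fall over the series (3% of all genes), 2 a called rise (2.73%) and 3 a threshold form. At the second copy 4 fell (2.81% of all genes) and 1 rose (0.966%). Etv4, the partner of Etv5, averaged 31.5 ± 12.8, 72.7 ± 6.97 and 71.2 ± 20.3 CPM, with a slope of -0.54 ± 0.11 (adjusted p = 0.00713) and a departure of 0.52 ± 0.15 (adjusted p = 0.219). On the ureteric bud trunk list 6 of 13 had a called rise over the series (2.73% of all genes) and none a called fall. At the second copy Cdh16, a cadherin of kidney tubules, rose by 0.77 ± 0.21 (adjusted p = 0.0491), and Hs3st3b1, a heparan sulfate sulfotransferase, had a step of -1.23 ± 0.21 (adjusted p = 0.00359). Calb1, a calcium-binding protein of the trunk, had steps of 0.54 ± 0.16 at the second and 0.34 ± 0.15 at the first copy.

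Markers of cells outside the nephron and bud were followed in the same embryos. Of 14 macrophage genes 10 had a called rise over the series, against 2.73% of all genes tested, with a median slope of 0.46 per copy and no called departure. Their summed level was 119 to 277 CPM in knockout, 114 to 208 in heterozygous and 81.7 to 170 in wild-type kidneys, which overlap. Cx3cr1, a chemokine receptor of these cells, averaged 28.4 ± 7.33, 20.3 ± 4.59 and 15.5 ± 3.99 CPM (slope 0.47 ± 0.07, adjusted p = 0.000857). The neuron and glia list had no called slope, and its median step was 0.91 at the second and -0.23 at the first copy, and its summed level was 287 to 373 CPM in knockout, 164 to 253 in heterozygous and 113 to 327 in wild-type kidneys. Erythroid genes had no called slope and a median step of 0.09 at the second and -0.65 at the first copy, and summed to 1988 to 5576, 2288 to 5149 and 2225 to 9516 CPM in the same order. No slope was called among 14 endothelial and 9 adrenal and gonad genes, 3 of 16 stromal genes were called (1 higher, 2 lower), and 2 of 10 muscle and cartilage genes (1 higher, 1 lower). Over all genes tested 2.73% of slopes were called higher and 3% lower. The part of these cell types in the results above was not tested.

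On the glycolysis and hypoxia list 8 of 18 genes fell at the second copy, against 2.81% of all genes tested, and none was called at the first. Over the series 10 of 18 had a called fall (3% of all genes) and none a called rise, with median steps of -0.40 at the second and 0.01 at the first copy. Hk2, a hexokinase, averaged 56.9 ± 7.25 CPM in knockout, 96.5 ± 15.2 in heterozygous and 94.2 ± 10.3 in wild-type kidneys, and its departure of 0.38 ± 0.10 missed the threshold (adjusted p = 0.151). Among 13 Wnt target genes 1 had a called rise over the series (2.73% of all genes) and none a called fall. At the second copy 1 of them rose (0.966% of all genes) and 1 fell (2.81%). Of 20 proliferation genes none had a called slope, and at the second copy 3 were lower (2.81% of all genes). Ret, Pax2, Wt1 and Foxd1, regulators of the bud, the mesenchyme and the stroma, had no called slope, with values of 0.23 ± 0.07, -0.29 ± 0.13, -0.14 ± 0.06 and -0.10 ± 0.08 per copy and adjusted p values of 0.0534, 0.255, 0.229 and 0.526.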

How the data were processed

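Whole-number counts of reads, not normalized, were deposited for 35349 gene symbols. STAR 2.4.0h1, featureCounts 1.4.6 and mm10 are named in the submitters' processing notes, and strandedness is not given in the sources used here, so overlapping genes cannot be separated. Every column had a sample. Genes that passed a filter on low counts (filterByExpr by genotype, minimum count 10, minimum total 15) were 16141. Libraries were scaled by trimmed means and tested with edgeR 4.0.16 (R 4.3.3) by quasi-likelihood F tests with Benjamini-Hochberg adjustment at 0.05 over all genes tested. Models held genotype or copies lost, sex and batch as the share of counts from batch 2. Batch equals the replicate number of the titles, so it is the replicate block, and the pairing comes from the batch label. The heterozygous embryo run in both batches (replicate 1) entered as the sum of its 2 runs. The test against the arithmetic midpoint used the fitted levels with delta-method errors and was added after the data were seen. Named genes were the 8 steepest called slopes in each direction, up to 8 called departures of each sign, up to 8 genes of each form, up to 4 per list and a few regulators. Other genes were named after their values were seen. The groups, the 14 lists (237 genes) and the rules were chosen with earlier results of these data known. Positions are from GENCODE vM21. The main test was checked on simulated data with the same dispersion for all genes and no batch, sex, title-prefix or ribosomal effect. That check cannot show how these affect the calls. Intervals are 95% confidence intervals of fitted levels or departures, with standard errors from the spread between embryos, and are not ranges of single embryos. Alternatives used limma 3.58.1 and DESeq2 1.42.0.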

Additional observations from a re-analysis of the deposited data

Results flagged for a closer look

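Of 141 genotype groups of the 47 genes whose embryo values were examined, 10 held 1 embryo far from the others of its group, and chance alone gives about 1 in 20. Wild-type replicate 3 was low for Shisa2 (27.4 CPM, against 43.4 to 49.7 in the other 5) and Capn6 (198 CPM, against 259 to 281). Wild-type replicate 6 was high for Moxd1 (87.0 CPM, against 51.9 to 65.1), Gm14204 (1.34 CPM, against 0.348 to 0.584) and Hk2 (114 CPM, against 85.6 to 93.2), and wild-type replicate 5 was high for Adh1 (12.3 CPM, against 7.4 to 9.13). Heterozygous replicate 5 was high for Cited1 (4.95 CPM, against 2.03 to 2.78) and Moxd1 (45.0 CPM, against 28.7 to 33.2), and heterozygous replicate 4 was low for Etv4 (60.8 CPM, against 73.5 to 77.9). Knockout replicate 5 was high for Etv5 (35.7 CPM, against 21.8 to 23.8).

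The heterozygous step of Esr1 differed between the ages on the log2 scale, by -3.92 ± 0.41 at E15.5 minus E11.5 (edgeR, adjusted p = 3.48e-05). Its E15.5 levels were 17.7 ± 0.344 CPM in heterozygous and 7.68 ± 0.379 in wild-type kidneys (SD, n = 4 each). At E11.5 its wild-type median was 0.163 CPM, and the step in CPM was not compared between the ages.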

How the results depend on the processing

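Counts are given in the order linear trend over Six2 copies, any genotype difference, departures, threshold, graded and saturated genes (925, 896, 33, 30, 5 and 2). With no replicate block (batch left out) they were 378, 303, 7, 6, 0 and 1. In batch 1 alone they were 166, 160, 0, 0, 0 and 0, in batch 2 alone 111, 108, 2, 1, 0 and 1, with the title prefix as block 108, 402, 100, 94, 3 and 1, and without libraries above 5% ribosomal counts (4 knockout, 4 heterozygous and 3 wild-type embryos) 302, 286, 2, 1, 0 and 1. DESeq2 moved the last 5 to 1447, 196, 174, 14 and 9. The last 4 became 70, 67, 3 and 1 without sex. No filter gave 77 departures, 69 threshold and 8 graded genes. With a batch level of its own for the embryo run in both batches, threshold and graded genes were 19 and 2, and with only its batch 2 run graded genes were 3. At unadjusted steps and departures the forms counted 333, 121 and 10. On linear CPM (limma) 1 departure, 0 threshold and 1 saturated gene were called, against the arithmetic midpoint 9, 8 and 1, and limma on log2 CPM called 21 departures. Leaving out each embryo in turn gave 547 to 1013 slopes, 452 to 954 genotype differences, 7 to 67 departures, 5 to 63 threshold, 0 to 8 graded and 0 to 2 saturated genes. Calls at the first and second copy (11 and 609) were 1 and 154 with no replicate block, 0 and 7 in batch 1 alone, 2 and 56 in batch 2 alone, 16 and 602 with the title prefix as block, 1 and 299 without libraries above 5% ribosomal counts, 52 and 1029 with DESeq2 and 31 and 634 with no filter, and 1 to 17 and 221 to 768 with 1 embryo left out. Of the 33 departures, 8 were among the 100 called with the title prefix as block. Slopes fell to 602, 616 and 547, and genotype differences to 573, 570 and 452, without knockout replicate 3, 4 or 5. The cause of these moves was not tested, except that fewer samples enter the fits of 1 batch or without libraries.

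Over 153 values of named genes and 28 alternatives, 3511 of 4284 values kept sign and call, 751 lost the call, 13 gained it and 9 changed sign, none of them called. The Wnt4 departure was 0.21 in batch 1 alone. The Ret departure was -0.062 in batch 1 alone, -0.11 in batch 2 alone and -0.089 with the title prefix as block, and with 1 embryo left out it ran from -0.064 to 0.138. The Pax2 trend slope and Pax2 departure were 0.017 and -0.15 in batch 2 alone, and the Foxd1 trend slope was 0.052 with the title prefix as block.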
